A study of Homo sapiens with 105 samples.

Results

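The genes described here are the ligands of the EGF receptor (HBEGF, AREG, EREG, TGFA, BTC and EPGN), 3 receptors of the ERBB family (EGFR, ERBB2 and ERBB3) and the receptor inhibitor ERRFI1. Their members on the array were all probesets that the platform annotation pairs with 1 of these 10 symbols, which gave 29 probesets of 54675 and covered 8 of the 10 genes. No probeset of the rule carried the symbol AREG or EPGN, and both genes are absent from the counts. A probeset outside the rule, which the study names AREGB, is described below without being counted. The probesets were 4 for HBEGF, 2 for EREG, 3 for TGFA, 2 for BTC, 9 for EGFR, 3 for ERBB2, 5 for ERBB3 and 1 for ERRFI1.

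The EGF receptor ligands are made as membrane proteins and are cut from the cell surface by ADAM proteases, after which they bind EGFR on the same or a neighbouring cell. EGFR pairs with itself, with ERBB2, which has no known ligand, or with ERBB3, whose own kinase activity is weak, and signals through RAS and ERK and through phosphoinositide 3-kinase. In keratinocytes this loop is known for its part in growth, migration and wound repair, and several of the ligands are themselves transcribed after EGFR is active. ERRFI1 (also called MIG6) binds the kinase domain of EGFR, blocks it and is induced by the same pathway.

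The arrays measured RNA of Vk2/E6E7 cells, a vaginal epithelial line immortalized with the E6 and E7 genes of a papillomavirus, after 6 h with a compound. The study's pro-inflammatory or immunomodulatory compounds (PICs) were the cytokine TNF-α at 40 ng/ml, the lipopeptides Pam3CSK4 at 10 μg/ml and MALP2 at 200 ng/ml, imiquimod, which is a TLR7 agonist, and the surfactant nonoxynol-9 (N-9) at 12.5 μg/ml. The labels give imiquimod as 30 mg/ml, whereas the methods state the same figure in μg/ml. The non-inflammatory compounds (NICs) were the gel formers hydroxyethylcellulose (HEC) and carboxymethylcellulose (CMC) at 1 mg/ml, and cells in growth medium alone (GM) were the control. All groups were of 1 cell line, and the methods state that its medium contained epidermal growth factor and bovine pituitary extract, so GM was not a state without EGFR ligand. Used here were 5 arrays for TNF-α, 6 each for Pam3CSK4, MALP2 and imiquimod, 9 each for N-9, HEC and CMC, and 53 for GM.

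Values are quantile-normalized log2 signals of the array, and a level can only be compared with levels of the same probeset. In RNA of a whole culture, fewer cells that make a transcript and less of it per cell cannot be told apart. A gene was represented by its brightest probeset, and "passed" means an adjusted p under 0.05 in limma after Benjamini-Hochberg adjustment over all 54613 probesets other than controls. A probeset was called dim under a log2 level of 7.63, the 90th percentile of 19 probesets for genes of unrelated tissues such as albumin and insulin. The sample titles number each array as a biological replicate, without saying which arrays were cultured or processed together. The p-values rest on array-to-array spread, part of which may be technical.

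Array medians before normalization lay between 6.22 and 7.08, and GM replicate 52 (highest correlation with another array 0.0484, against at least 0.835 among the others) and TNF-α replicate 6 (the mean of replicates 1 to 3 to within 7.7e-09) were left out. Arrays with consecutive replicate numbers resembled each other in runs of 3, a grouping that the labels do not state. The 6 measured epithelial markers had GM levels of 11.28 to 14.71, all 5 leukocyte and all 3 melanocyte markers were dim, and 5 of 8 fibroblast and endothelial markers were dim, the highest being a COL1A1 probeset at 10.83. The 3′ to 5′ difference of ACTB, which rises as RNA degrades, was 0.96 ± 0.52 in imiquimod and 0.44 ± 0.24 in GM on the log2 scale (SD, n = 6 and 53), and that of GAPDH was 0.07 ± 0.26 in imiquimod and -0.02 ± 0.22 in GM. The part of RNA quality in the imiquimod values was not tested.

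The runs bear on every value below, since the members themselves moved from run to run without any compound. In GM the SD of HBEGF was 0.33 within runs and 0.78 between run means, for EREG 0.29 and 0.81, for TGFA 0.21 and 0.57, and for ERRFI1 0.13 and 0.61. GM replicates 22 to 24 and 28 to 30 were high in all of these at once: their run means were above those of the other GM runs in HBEGF, EREG, TGFA and ERRFI1. Calls given below on the brightest or second brightest probeset of a gene, or on other pathway genes, are therefore named where they ended with the run as a random block. For any other probeset of a member, and for the AREGB probeset, the effect of this block was not examined.

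The control regions just before the gene starts are shown for the 4 genes that carry the main results, because HBEGF, EREG and ERRFI1 passed together with N-9, and the same genes and TGFA with imiquimod. Each sequence holds the 250 bases before the gene's first base, 5′ to 3′ on the strand of the gene, from RefSeq on GRCh38.p14, where 9 of the 10 genes had an entry at the start of the gene. Capitals mark the matches to any of the motifs searched on both strands.
HBEGF (chr5:140346604-140346853, minus strand): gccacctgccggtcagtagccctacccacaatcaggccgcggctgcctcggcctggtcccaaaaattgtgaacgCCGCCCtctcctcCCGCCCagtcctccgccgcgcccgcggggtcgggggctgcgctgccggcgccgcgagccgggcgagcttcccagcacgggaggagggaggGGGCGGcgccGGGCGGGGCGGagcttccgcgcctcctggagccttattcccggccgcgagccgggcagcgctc
EREG (chr4:74364895-74365144, plus strand): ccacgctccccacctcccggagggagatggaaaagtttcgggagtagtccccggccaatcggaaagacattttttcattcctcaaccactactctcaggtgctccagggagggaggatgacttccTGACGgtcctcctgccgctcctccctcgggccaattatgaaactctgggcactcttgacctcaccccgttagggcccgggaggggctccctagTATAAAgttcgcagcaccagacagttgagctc
TGFA (chr2:70553827-70554076, minus strand): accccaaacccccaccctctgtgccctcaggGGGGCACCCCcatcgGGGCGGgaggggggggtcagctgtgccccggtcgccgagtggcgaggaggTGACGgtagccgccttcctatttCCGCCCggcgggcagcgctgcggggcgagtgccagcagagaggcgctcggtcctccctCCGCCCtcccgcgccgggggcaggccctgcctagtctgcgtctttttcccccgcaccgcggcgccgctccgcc
ERRFI1 (chr1:8026310-8026559, minus strand): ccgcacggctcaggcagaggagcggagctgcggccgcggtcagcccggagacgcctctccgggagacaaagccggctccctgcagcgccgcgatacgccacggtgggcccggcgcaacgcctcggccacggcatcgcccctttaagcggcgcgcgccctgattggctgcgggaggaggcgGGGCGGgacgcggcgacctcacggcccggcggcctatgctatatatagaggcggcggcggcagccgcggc
The motifs were the AP-1 motif TGANTCA, the cAMP response element TGACGTCA and its core TGACG, the GC box GGGCGG, the TATA box TATAAA, and the NF-κB and CArG (serum response) motifs by name. A cAMP response element contains this core on both strands. Among 35116 promoter windows of this length, 6.57% held the AP-1 motif, 1.65% the cAMP response element, 21.2% its core, 42.6% a GC box, 10.7% a TATA box, 9.96% the NF-κB motif and 1.16% the CArG motif. HBEGF held 5 GC boxes, 2 of which overlap, and ERRFI1 held 1. EREG held a TATA box 32 bases before the start and 1 core, and TGFA held 3 GC boxes, 1 core and 1 NF-κB match. A match is a description of letters and no measurement of binding.

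At least 1 ligand passed as higher with each PIC, for TNF-α EREG alone, whose call ended with the run as a random block (adjusted p = 0.117), and no member passed with HEC or CMC. With N-9, HBEGF had the largest difference from GM of any member (8.88-fold), while TGFA did not pass. With imiquimod HBEGF, EREG, TGFA and ERRFI1 all rose by 2.39- to 3.79-fold. With MALP2 the leading change among members above the dim level was TGFA at 3.01-fold.

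**Figure D1:**
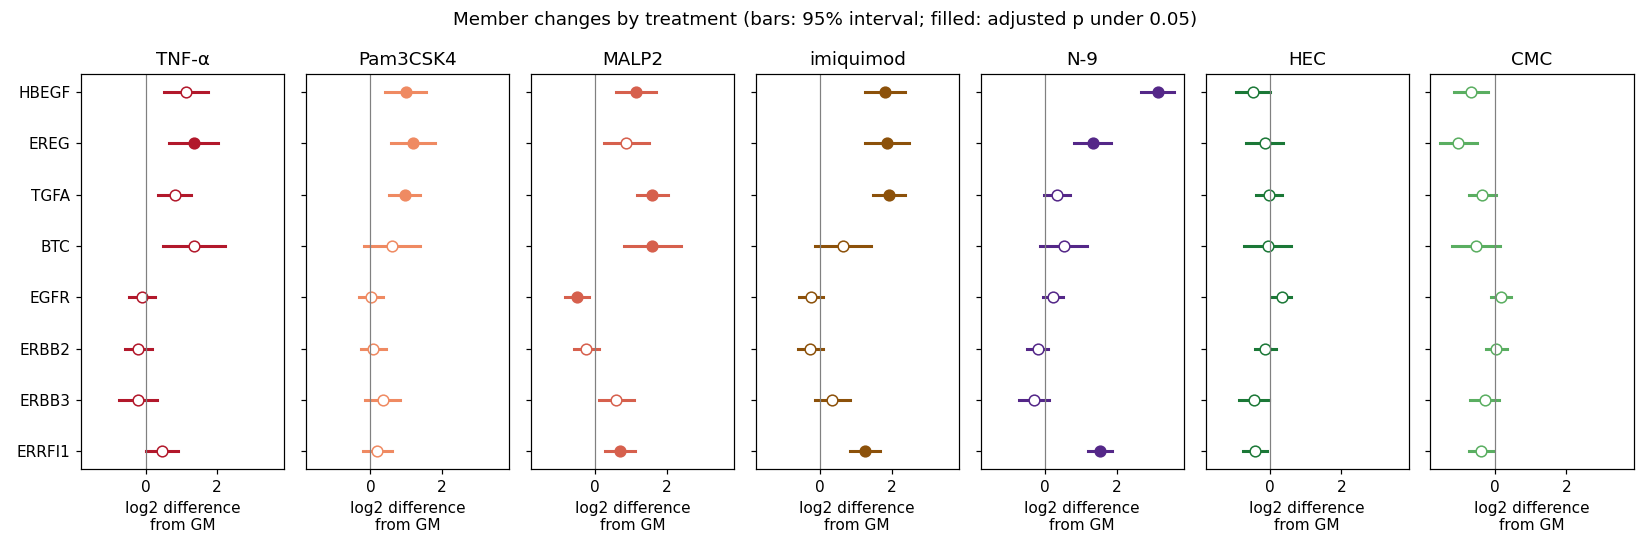
Log2 difference of each treatment from GM (horizontal axis) for the brightest probeset of each of the 8 genes (vertical axis), 1 panel per treatment, with the 95% interval as a bar and filled points for an adjusted p under 0.05. HBEGF with N-9 stands at 3.15, and no point is filled for HEC or CMC.

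Of the 8 genes, 3 passed as higher with N-9 (HBEGF, EREG and ERRFI1) and 0 as lower, where 6.65% of all 19775 genes passed as higher and 13.2% as lower. With imiquimod 4 were higher (HBEGF, EREG, TGFA and ERRFI1) and 0 lower, where 6.89% of all genes were higher and 7.04% lower. With MALP2 4 were higher (HBEGF, TGFA, BTC and ERRFI1) and 1 lower (EGFR), where 5.00% of all genes were higher and 4.62% lower. With Pam3CSK4 3 were higher (HBEGF, EREG and TGFA) and 0 lower, where 1.92% of all genes were higher and 1.27% lower. With TNF-α 1 was higher (EREG) and 0 lower, where 0.774% of all genes were higher and 0.223% lower. The members were chosen with earlier results of these data known, so these counts do not support a direction. When the run was entered as a random block, 3 members passed for N-9, 4 for imiquimod, 2 for MALP2, 1 for Pam3CSK4 and 0 for TNF-α.

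With HEC no member passed in limma, where 0.298% of all genes were higher and 0.536% lower, and 4 members (1 higher and 3 lower) had an unadjusted p under 0.05, as did 15.5% of all genes. With CMC no member passed, where 0% of all genes passed in either direction, and 3 members, all lower, had an unadjusted p under 0.05, as did 7.78% of all genes. The median log2 difference over the 8 genes was 0.42 for N-9, 0.95 for imiquimod, 0.78 for MALP2, 0.48 for Pam3CSK4, 0.64 for TNF-α, -0.14 for HEC and -0.37 for CMC, while that over all genes lay between -0.05 and 0.03 for each treatment. All 7 treatments were set against the same GM arrays.

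HBEGF encodes heparin-binding EGF-like growth factor, which is anchored on the cell surface until it is cut and is also the receptor of diphtheria toxin. In N-9 the lowest, median and highest arrays were at 11.83, 12.18 and 13.03, against 7.31, 9.26 and 10.86 in GM. All 9 N-9 arrays were above every GM array. The difference was 3.15 ± 0.24 (SE, 8.88-fold, adjusted p = 3.35e-20).

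The second HBEGF probeset gave 3.12 ± 0.16 (SE, 8.71-fold, adjusted p = 3.23e-31) with N-9. The other 2 HBEGF probesets were dim in every group. The 3 N-9 runs had HBEGF means between 11.91 and 12.87, each above the highest GM run mean of 10.76.

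HBEGF with imiquimod was at 10.30, 11.02 and 11.57 (lowest, median and highest array), against the GM values given above, and 3 of its 6 arrays were above every GM array. The difference was 1.81 ± 0.28 (SE, adjusted p = 5.34e-07). With MALP2 the arrays lay between 10.03 and 10.68 and the difference was 1.14 ± 0.28 (SE, adjusted p = 0.00365). Both sets lay above the GM median, and the MALP2 arrays lay within the GM range.

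With Pam3CSK4 HBEGF lay between 9.99 and 10.46, 0.98 ± 0.28 above GM (SE, adjusted p = 0.0405). This call ended with the run as a random block (adjusted p = 0.218). With TNF-α the 5 arrays were at 10.62, 11.01, 10.80, 9.76 and 9.42, and the difference of 1.13 ± 0.31 (SE) did not pass (adjusted p = 0.0528). On the second HBEGF probeset the difference of 0.77 ± 0.21 (SE) passed (adjusted p = 0.0481), not with the run as a random block (adjusted p = 0.51). TNF-α replicates 1 to 3 were high and replicates 4 and 5 low, and this split recurred in other members.

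HBEGF was 2.02 ± 0.37 higher in N-9 than in TNF-α (adjusted p = 4.2e-05), 2.17 ± 0.35 higher than in Pam3CSK4 (1.9e-06), 2.01 ± 0.35 higher than in MALP2 (6.52e-06) and 1.34 ± 0.35 higher than in imiquimod (adjusted p = 0.00495, all SE). The last difference did not pass without imiquimod run 2 (adjusted p = 0.172) or N-9 run 2 (0.0635). In order of group mean, HBEGF thus stood highest in N-9, followed by imiquimod, MALP2, TNF-α, Pam3CSK4, GM, HEC and CMC. Imiquimod and TNF-α did not differ beyond their spread (difference 0.68, 95% interval -0.11 to 1.47), nor did MALP2 and TNF-α (0.01, -0.78 to 0.80).

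**Figure D2:**
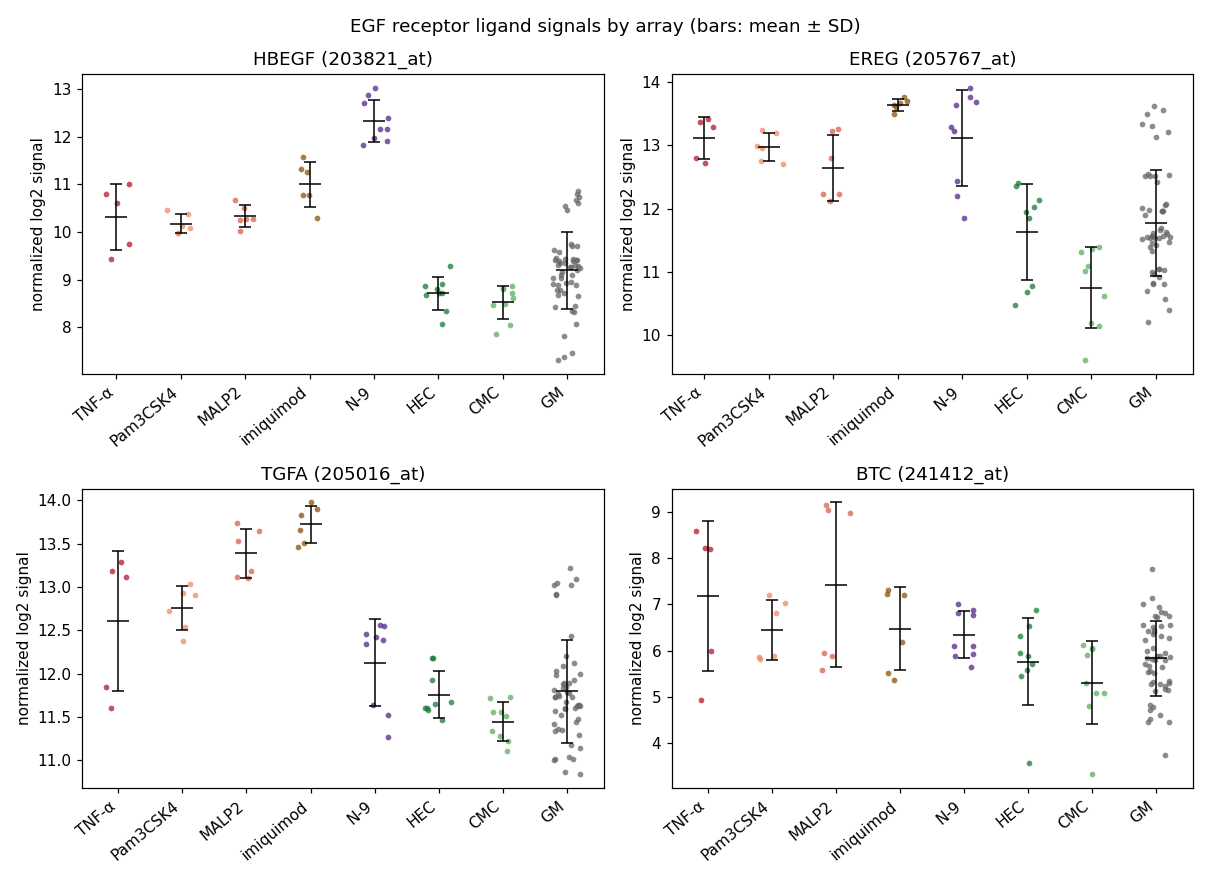
Normalized log2 signal (vertical axis) of HBEGF, EREG, TGFA and BTC by treatment (horizontal axis), with 1 point per array and the mean ± SD as bars. All 9 N-9 arrays lie above every GM array for HBEGF, all 6 imiquimod arrays do so for TGFA, and BTC splits into high and low arrays in TNF-α and MALP2.

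TGFA encodes transforming growth factor alpha, a high-affinity EGFR ligand that keratinocytes make. In imiquimod its lowest, median and highest arrays were at 13.46, 13.74 and 13.98, against 10.84, 11.73 and 13.21 in GM. All 6 imiquimod arrays were above every GM array. The difference was 1.92 ± 0.22 (SE, 3.79-fold, adjusted p = 3.31e-11).

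With MALP2 TGFA lay between 13.11 and 13.74 with a median of 13.36, and 3 of 6 arrays were above every GM array. The difference was 1.59 ± 0.22 (SE, 3.01-fold, adjusted p = 3.9e-08). With Pam3CSK4 the arrays lay between 12.38 and 13.04, 0.96 ± 0.22 above GM (SE, adjusted p = 0.00536). The lipopeptides Pam3CSK4 and MALP2 were given at different doses, so their values stand side by side without a comparison.

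With N-9 TGFA lay between 11.27 and 12.56 with a median of 12.39, and the difference from GM of 0.33 ± 0.18 (SE) did not pass (adjusted p = 0.231). The second TGFA probeset passed with N-9 (0.58 ± 0.17, SE, adjusted p = 0.00856), so the probesets differ in this call. It ended with the run as a random block (adjusted p = 0.0664), where the brightest probeset did not pass either (adjusted p = 0.459). N-9 run 2, which was highest for HBEGF, was lowest for TGFA, at 11.64, 11.53 and 11.27. With TNF-α the TGFA values were 13.29, 13.19, 13.11, 11.61 and 11.85, and the difference of 0.81 ± 0.24 (SE) did not pass (adjusted p = 0.095).

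TGFA was 1.59 ± 0.27 lower in N-9 than in imiquimod (difference -1.59, adjusted p = 8.79e-06) and lower than in MALP2 (difference -1.26 ± 0.27, adjusted p = 0.000317, SE). The difference from MALP2 did not pass in 1 of 13 alternative settings (adjusted p = 0.0852). On the brightest probesets HBEGF was thus higher and TGFA lower in N-9 than in imiquimod, each by a tested difference. The other 2 TGFA probesets gave differences between N-9 and imiquimod of -0.63 (95% interval -1.12 to -0.14) and -0.68 (-1.35 to -0.01) that did not pass (adjusted p = 0.0888 and 0.199). TGFA was higher in imiquimod than in TNF-α (1.11 ± 0.31, SE, adjusted p = 0.03), which did not hold with the run as a random block (adjusted p = 0.0601).

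EREG encodes epiregulin, an EGFR ligand of lower affinity that also acts through ERBB4. In imiquimod its lowest, median and highest arrays were at 13.49, 13.65 and 13.76, against 10.21, 11.57 and 13.62 in GM, and 4 of 6 arrays were above every GM array. The difference was 1.87 ± 0.31 (SE, 3.65-fold, adjusted p = 3.12e-06). The imiquimod arrays had an SD of 0.094 for this gene, while those of N-9 had 0.76.

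With N-9 EREG lay between 11.85 and 13.91 with a median of 13.29, and 4 of 9 arrays were above every GM array. The difference was 1.33 ± 0.26 (SE, adjusted p = 4.72e-05). As for TGFA, the lowest arrays were those of N-9 run 2, at 12.44, 12.20 and 11.85. The same-numbered arrays were low in GM too (10.71, 10.83 and 10.21) and in HEC (run mean 10.64), but in CMC that run was highest (11.35). GM replicates 7 to 9 were similarly low (10.57, 10.81 and 10.41), while run 3 was highest in N-9 (13.79) and in HEC (12.24).

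With TNF-α EREG was at 13.42, 13.29, 13.37, 12.72 and 12.81, all above the GM median. The difference of 1.34 ± 0.34 (SE) passed (adjusted p = 0.0291) but not with the run as a random block (adjusted p = 0.117), and without replicate 1, 2 or 3 no member passed with TNF-α. With Pam3CSK4 EREG lay between 12.70 and 13.24, 1.20 ± 0.31 above GM (SE, adjusted p = 0.0191, with the run block 0.0967). With MALP2 the difference was 0.87 ± 0.31 (SE) and did not pass (adjusted p = 0.0797).

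With CMC EREG lay between 9.61 and 11.39, with 3 of 9 arrays below every GM array, and the difference of -1.03 ± 0.26 (SE) did not pass (adjusted p = 0.315). None of the differences of EREG between N-9 and another PIC passed, the widest interval being that against TNF-α, -0.81 to 0.80. The second EREG probeset was dim in GM and passed with N-9 alone among the treatments (0.92 ± 0.27, SE, adjusted p = 0.00968). Its N-9 arrays lay between 5.17 and 9.64, and this call ended with the run as a random block (adjusted p = 0.0707).

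BTC encodes betacellulin, which binds EGFR and ERBB4. Its brightest probeset was dim as a mean in all 8 groups, and single runs stood out: MALP2 replicates 1 to 3 were at 9.04, 9.14 and 8.97 and replicates 4 to 6 at 5.59, 5.89 and 5.95, against 3.75, 5.85 and 7.77 as the lowest, median and highest GM arrays. The mean difference with MALP2 of 1.60 ± 0.40 (SE) passed (adjusted p = 0.00411), not with the run as a random block (adjusted p = 0.0563), and without MALP2 run 1 it was -0.03. TNF-α showed the same split, with 8.59, 8.23 and 8.20 in replicates 1 to 3 and 5.99 and 4.92 in replicates 4 and 5.

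A probeset outside the rule is named AREGB by the study, and RefSeq lists that symbol as a synonym of AREG, the gene of the ligand amphiregulin. It is given here without being counted. It was 0.90 ± 0.30 higher in N-9 than in GM (SE, adjusted p = 0.0232) and did not pass with another treatment. Whether this call holds with the run as a random block was not examined. HEC had nearly the same mean, 8.95, as N-9, 8.97, against 8.06 in GM, with a difference of 0.89 ± 0.30 (SE) that did not pass (adjusted p = 0.126). Of the arrays, 9 of 9 in HEC and 6 of 9 in N-9 were above the GM median, and the N-9 runs ranged from 7.23 to 9.86 in their means.

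EGFR, the receptor of all these ligands, had lowest, median and highest arrays of 11.22, 11.57 and 11.73 in MALP2, against 11.26, 12.05 and 12.96 in GM, with 1 of 6 MALP2 arrays below every GM array. The difference of -0.51 ± 0.17 (SE) passed (adjusted p = 0.0428), not with the run as a random block (adjusted p = 0.125). With N-9 the arrays lay between 12.01 and 12.48, and the difference of 0.22 ± 0.14 (SE) did not pass (adjusted p = 0.304).

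The EGFR probesets differed in this. The third brightest rose with N-9 by 0.75 ± 0.14 (SE, adjusted p = 1.11e-05) and was higher in N-9 than in each of the other PICs. Its N-9 arrays lay between 11.49 and 12.30, within the GM range of 10.50 to 12.30, and 11 GM arrays were above the lowest of them. These calls were not examined with the run as a random block. The second brightest was 0.40 ± 0.22 above GM with N-9 (SE, adjusted p = 0.208). The other 6 EGFR probesets were dim in every group.

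ERBB2, the shared partner of the other receptors, had arrays between 8.52 and 9.94 in N-9, between 8.90 and 9.47 in imiquimod, and between 8.83 and 10.36 in GM. None of its 3 probesets passed with a treatment. The 95% interval of the difference from GM was -0.51 to 0.08 with N-9 and -0.63 to 0.08 with imiquimod. ERBB3, a receptor of the neuregulins, had group means between 8.07 in HEC and 9.11 in MALP2, with 8.52 in GM, and its brightest probeset did not pass against GM. It was lower in N-9 than in MALP2 (difference -0.90 ± 0.30, SE, adjusted p = 0.0339), which ended with the run as a random block (adjusted p = 0.14). A dim ERBB3 probeset passed with N-9 (1.13 ± 0.35, SE, adjusted p = 0.0128), a call not examined with the run as a random block.

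**Figure D3:**
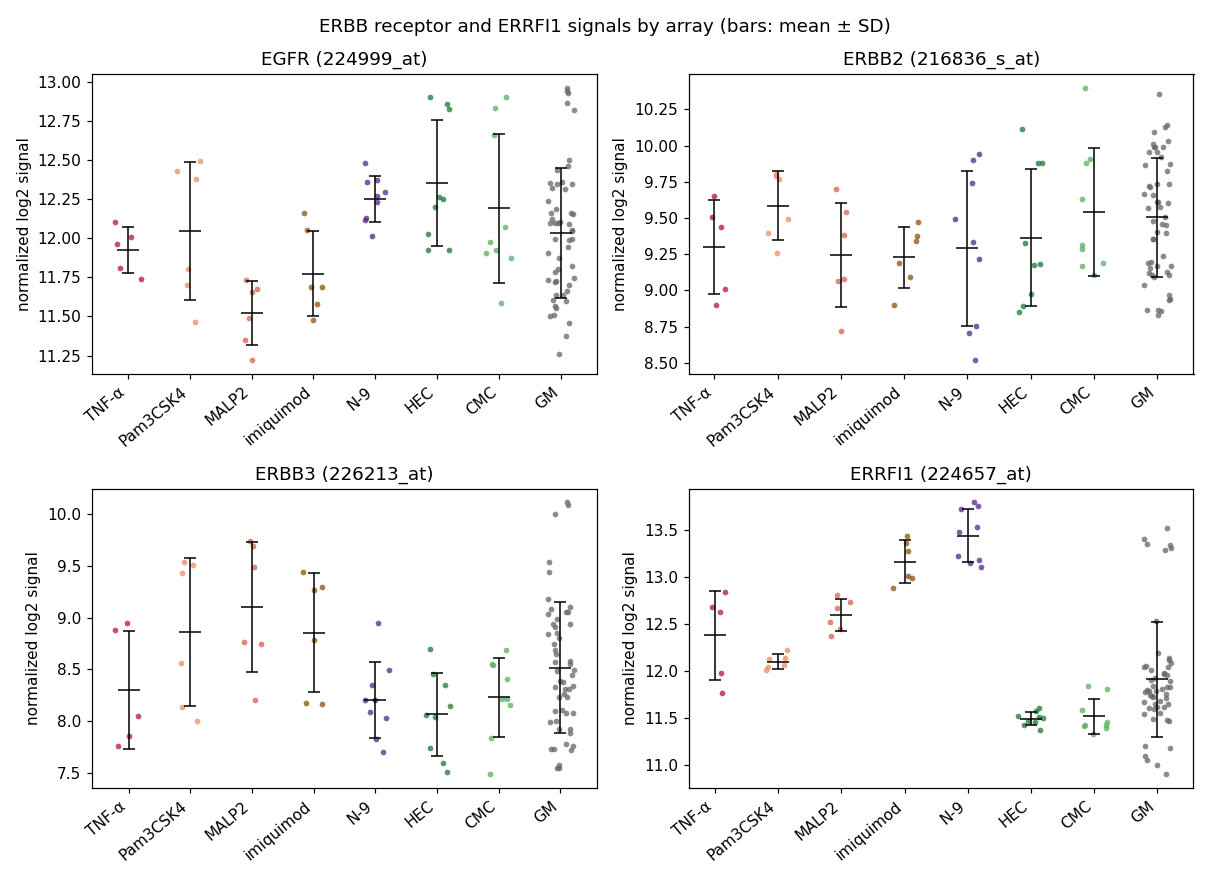
Normalized log2 signal (vertical axis) of EGFR, ERBB2, ERBB3 and ERRFI1 by treatment (horizontal axis), with 1 point per array and the mean ± SD as bars. The receptor arrays overlap the GM arrays, while ERRFI1 in N-9 lies between 13.11 and 13.80, near the top of the GM range of 10.90 to 13.53.

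ERRFI1 had lowest, median and highest arrays of 13.11, 13.48 and 13.80 in N-9, against 10.90, 11.79 and 13.53 in GM, and 4 of 9 N-9 arrays were above every GM array. The difference was 1.53 ± 0.17 (SE, 2.89-fold, adjusted p = 1.02e-11). The GM arrays that overlapped N-9 numbered 6.

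With imiquimod ERRFI1 lay between 12.88 and 13.44, 1.25 ± 0.21 above GM (SE, 2.39-fold, adjusted p = 2.02e-06). With MALP2 it lay between 12.37 and 12.81, 0.69 ± 0.21 above GM (SE, adjusted p = 0.0242, with the run block 0.0676). The Pam3CSK4 arrays lay within 12.01 to 12.22 and did not pass (adjusted p = 0.794). The TNF-α arrays were at 12.63, 12.84, 12.68, 11.98 and 11.77 and did not pass (adjusted p = 0.562).

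ERRFI1 was 1.06 ± 0.27 higher in N-9 than in TNF-α (adjusted p = 0.00455), 1.34 ± 0.25 higher than in Pam3CSK4 (5.62e-05) and 0.85 ± 0.25 higher than in MALP2 (adjusted p = 0.014, all SE). The difference from TNF-α did not pass in 2 of 18 alternative settings (adjusted p up to 0.319). That from Pam3CSK4 did not pass in 1 of 13 (0.126), and that from MALP2 in 3 of 13 (up to 0.398). Against imiquimod its difference of 0.28 did not pass (95% interval -0.22 to 0.78).

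Between treatments, 2 of the 8 members passed for N-9 against TNF-α (HBEGF and ERRFI1), where 8.55% of all genes passed in either direction, and the same 2 for N-9 against Pam3CSK4, where 13.7% did. For N-9 against MALP2 5 passed, where 15.4% of all genes did: HBEGF, ERRFI1 and EGFR were higher in N-9, and TGFA and ERBB3 lower. Of these, EGFR did not pass in 2 of 13 alternative settings (adjusted p up to 0.252) and ERBB3 in 6 of 13 (up to 0.649). For N-9 against imiquimod 2 passed (HBEGF and TGFA), where 11.7% did. For imiquimod against TNF-α 1 passed (TGFA), where 3.19% did, and for MALP2 against TNF-α 0 passed, where 0.364% did. With the run as a random block 4 passed for N-9 against MALP2 (without ERBB3) and 0 for imiquimod against TNF-α, and the other counts were the same.

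HEC and CMC are both cellulose ethers, which carry hydroxyethyl groups in HEC and carboxymethyl groups in CMC, and both were used at 1 mg/ml for 6 h. Of the 8 member pairs compared between them 0 passed in limma after adjustment over all probesets, and 0% of all genes did. EREG had the largest difference, 0.88 with a 95% interval of 0.20 to 1.56 (adjusted p = 0.587). The interval of HBEGF was -0.42 to 0.81, that of TGFA -0.17 to 0.79 and that of ERRFI1 -0.47 to 0.42.

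HBEGF had lowest, median and highest arrays of 8.06, 8.72 and 9.28 in HEC and of 7.85, 8.62 and 8.86 in CMC, against 7.31, 9.26 and 10.86 in GM. All 9 CMC arrays and 8 of 9 HEC arrays were below the GM median, and neither difference passed (-0.48 ± 0.24 for HEC, adjusted p = 0.31, and -0.67 ± 0.24 for CMC, adjusted p = 0.531, SE).

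ERRFI1 lay between 11.37 and 11.60 in HEC and between 11.33 and 11.84 in CMC, against 10.90 to 13.53 in GM. The 95% interval of its difference from GM was -0.76 to -0.07 for HEC and -0.74 to -0.05 for CMC, without passing after adjustment (adjusted p = 0.217 and 0.645). EREG lay between 10.48 and 12.40 in HEC, and its difference of -0.15 ± 0.26 (SE) did not pass (adjusted p = 0.83). EGFR in HEC was 0.32 ± 0.14 above GM (SE) and did not pass (adjusted p = 0.24). TGFA had 95% intervals of -0.41 to 0.33 for HEC and -0.72 to 0.02 for CMC.

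**Figure D4:**
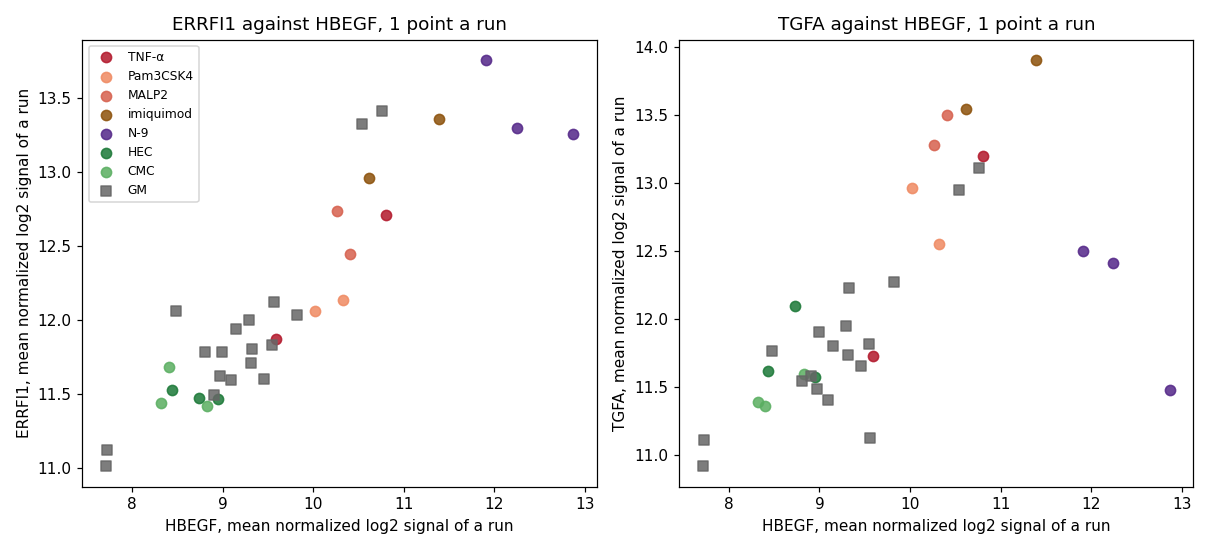
Mean normalized log2 signal of each run, with HBEGF on the horizontal axis and ERRFI1 (left) or TGFA (right) on the vertical axis, 1 point per run, circles for treatments and squares for GM. The 3 N-9 runs lie at HBEGF means of 11.91 to 12.87, with ERRFI1 at 13.26 to 13.76 and TGFA at 11.48 to 12.50.

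Over the 8 group means HBEGF and ERRFI1 correlated at r = 0.97, and HBEGF and TGFA at r = 0.53, given as descriptions since the points share the arrays. Among 2169 genes with a range of at least 1 and a highest mean of at least 8, the patterns most like that of HBEGF were those of SPSB1 (r = 0.981), DEDD2 (r = 0.975) and XBP1 (r = 0.974). Those most like TGFA were RAP1GAP2 (r = 0.995), PRSS2 (r = 0.986) and TSC22D2 (r = 0.984).

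The other genes of the pathway were counted in lists, whose counts stand against the shares of all genes given above, 6.65% higher and 13.2% lower with N-9, 6.89% higher and 7.04% lower with imiquimod, and 5.00% higher and 4.62% lower with MALP2. Of 6 ligand and receptor genes that are not members (EGF, the neuregulins NRG1 to NRG4 and ERBB4), NRG1 was higher in MALP2 (1.04 ± 0.29, SE, 11.24 against 10.20 in GM, adjusted p = 0.0106, with the run block 0.0524) and in N-9 (0.91 ± 0.24, SE, 11.10 against 10.20 in GM, adjusted p = 0.00306). NRG4 was lower in imiquimod (difference -3.97 ± 0.54, SE, adjusted p = 1.17e-08), with means of 1.52 and 5.49 in imiquimod and GM that are both dim. It also passed as lower with Pam3CSK4 (difference -2.43, adjusted p = 0.00348, with the run block 0.165) and with MALP2 (difference -2.27, adjusted p = 0.00229, with the run block 0.0965). Of 7 genes of ligand shedding, 2 were higher with N-9. ADAM17, a protease that releases several EGFR ligands, was higher by 0.56 ± 0.11 (SE, adjusted p = 4.29e-05). RHBDF1, a rhomboid-like protein that helps the transport of ADAM17, was higher by 0.34 ± 0.13 (SE, adjusted p = 0.0431, with the run block 0.241).

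Of 12 measured genes among adaptors and the ERK cascade, 4 were lower with N-9 and 0 higher, and 2 were higher and 2 lower with imiquimod. With the run as a random block 3 of the 4 calls with N-9 were kept (SOS1 ended, adjusted p = 0.165), and 1 of the 4 with imiquimod (SOS2, HRAS and MAP2K1 ended, adjusted p = 0.089, 0.0768 and 0.11). PIK3R1, the regulatory subunit of phosphoinositide 3-kinase, was 0.90 lower in N-9 (difference -0.90 ± 0.11, SE, 9.93 against 10.83 in GM, adjusted p = 3.33e-10). PIK3R1 was lower too with imiquimod (difference -0.89, adjusted p = 2.32e-07) and with MALP2 (difference -0.76, adjusted p = 1.65e-05). SOS2, an exchange factor for RAS, was 0.59 ± 0.17 higher with Pam3CSK4 (SE, adjusted p = 0.0429, with the run block 0.268). The median log2 difference of this list with N-9 was -0.17, against -0.05 over all genes.

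Of 12 genes that attenuate receptor signals, 4 were higher and 3 lower with N-9, and 3 were higher with imiquimod. With the run as a random block 6 of the 7 calls with N-9 were kept (RNF41 ended, adjusted p = 0.249), and 2 of the 3 with imiquimod (CBL ended, adjusted p = 0.266). CBLB, a ubiquitin ligase that targets active receptors, was 1.17 ± 0.10 higher with imiquimod (SE, 9.77 against 8.60 in GM, adjusted p = 1.29e-16). With N-9 it was higher by a similar 1.11 ± 0.08 (SE, adjusted p = 6.51e-20). SOCS3, a feedback inhibitor of cytokine receptors, was 1.13 ± 0.19 higher with N-9 (SE, 8.43 against 7.31 in GM, where it was dim, adjusted p = 1.25e-06).

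Of 13 measured genes known to respond to ERK, 9 were higher and 1 lower with N-9, 5 higher and 1 lower with imiquimod, and 3 higher and 1 lower with MALP2. None passed with TNF-α, Pam3CSK4, HEC or CMC. The lower gene was CCND1 with N-9 (difference -1.45, adjusted p = 1.29e-15) and with imiquimod (difference -0.51, adjusted p = 0.0224). With MALP2 it was ETV5 (difference -1.15, adjusted p = 0.000339). FOS, a subunit of AP-1, was 2.76 ± 0.36 higher with N-9 (SE, 11.51 ± 1.54 against 8.75 ± 1.05 in GM, SD, adjusted p = 1.76e-09). PLAUR, the urokinase receptor, was 2.08 ± 0.24 higher with N-9 (SE, 12.32 against 10.24 in GM, adjusted p = 1.39e-11). PLAUR was also higher with MALP2 (difference 1.615, adjusted p = 1.4e-05) and with imiquimod (difference 0.93, adjusted p = 0.018). The list's median log2 difference was 0.94 with N-9 and 0.68 with imiquimod, and with the run as a random block all 10 calls with N-9 and all 4 with MALP2 were kept, and 4 of the 6 with imiquimod (IER3 and CCND1 ended, adjusted p = 0.0914 and 0.142).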

How the data were processed

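RNA of Vk2/E6E7 cells was hybridized to Affymetrix U133 Plus 2.0 arrays, and the values used were the log2 signals that the authors deposited for 105 arrays in a single file. Per the labels' processing notes the submitters used MAS5 and GCOS 1.3, whereas the methods describe RMA. Which method gave the deposited log2 values was not tested, and 0.209% of them were below 0. MAS5 signals carry more noise at dim probesets.

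The 103 arrays used were quantile normalized and fitted in limma 3.58.1 (R 4.3.3) as group means, with spreads moderated by eBayes and p-values adjusted by Benjamini-Hochberg over 54613 probesets, without a filter. The number of arrays limits the precision. Of all probesets 41097 had 1 gene, 1801 several and 11777 were not listed in the platform annotation. The steps were tested on simulated data whose arrays were independent, without runs. That simulation therefore does not show how the p-values behave in the presence of runs.

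Runs were 3 consecutive replicate numbers of a group. The members, the lists and the rule for named genes (all members, the 2 largest passing changes of each list, and the 3 most similar patterns for HBEGF and TGFA) were chosen with earlier results of these data known. Genes named beyond this rule were chosen after their values were seen. Alternatives were the normalization, an offset, a dim filter, the arrays and controls used, blocks, the probeset, and the methods' analysis of variance with a fold limit.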

Additional observations from a re-analysis of the deposited data

Results flagged for a closer look

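In 56 sets of values (8 genes in 7 treatments) a single array stood apart by Dixon's 95% limit in 2, where chance flags about 1 in 20. BTC in HEC replicate 5 was at 3.56 on the log2 scale, with the nearest HEC array at 5.46. BTC in CMC replicate 3 was at 3.32, with the nearest CMC array at 4.79. Both are dim values.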

How the results depend on the processing

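HBEGF, EREG and ERRFI1 with N-9, HBEGF, EREG, TGFA and ERRFI1 with imiquimod, TGFA with MALP2, and HBEGF in N-9 against TNF-α, Pam3CSK4 and MALP2 passed in the same direction under every alternative run for them, except EREG with imiquimod on its second, dimmer probeset (adjusted p = 0.432). The count of members that passed with TNF-α, 1 as reported, was 2 without quantile normalization, 2 with an offset of 16, 3 with a filter at a group mean of 7, 3 with all 105 arrays, 0 with the run as a random block (correlation within runs 0.438), 4 with the GM controls limited to replicates 1 to 9, 5 with these and the replicate number as a block, 0 with only TNF-α and GM arrays, 3 by the methods' analysis of variance with a fold over 2, and between 0 and 4 when replicates or runs were left out (0 without replicate 1, 2 or 3 or run 1, 3 without replicate 4, and 4 without replicate 5 or run 2). For Pam3CSK4, 3 as reported, it was 0 with all 105 arrays, 1 with the run block, the second probeset, a fold over 2 or the analysis of variance, and 0 to 1 without a run. For MALP2, 5 as reported, it was 3 with all 105 arrays, only MALP2 and GM arrays, a fold over 2 or the analysis of variance, 2 with the run block or second probeset, and 2 without either run. For imiquimod, 4 as reported, it was 2 with the second probeset, which not every gene has. For N-9 it was 3 to 5 without a run (5 without run 2), for HEC 0 to 1 (1 without run 3), and for CMC 0 to 1 (1 without run 2, lower in CMC) and 1 by the analysis of variance. BTC with MALP2 was -0.026 without MALP2 run 1 and 3.22 without run 2. After seeing the data, the runs were left out in turn, and GM replicates 22 to 24 and 28 to 30 were left out: TNF-α then had 4 members, EGFR with MALP2 no longer passed (adjusted p = 0.054), and the other 27 calls remained. Replicate numbers were not taken as pairs, since no group had every same-numbered pair correlated over 0.1 (6 of 9 pairs were in N-9 and in HEC, and 2 and 1 arrays there correlated best with their own number), and under the replicate block all 28 calls remained. The run block was set within each group, so it does not account for a run shared with GM. Beyond these pair correlations, whether N-9 or HEC shared runs with GM was not tested. The cause of the changes between settings was not tested. The number of arrays and runs limits the precision.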
